A study of Mus musculus with 22 samples.

Results

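Solute carriers are the membrane proteins that move amino acids, sugars, ions, metals, vitamins and nucleotides across the plasma membrane and the membranes of organelles. The genes described here are the 178 protein-coding *Slc* genes, without the mitochondrial *Slc25* family, that were selected on a mean raw count of 20 or more over the libraries of at least 1 age. They are 178 of 317 protein-coding *Slc* genes outside *Slc25* in the 2 count tables, which hold 30332 genes in all. Another 132 genes were below that mean, and 7 genes (*Slc2a2*, *Slc30a8*, *Slc4a10*, *Slc16a1*, *Slc18a1*, *Slc18a2* and *Slc38a4*) were left out by name. Of the 178, 144 reached the mean at both ages, 31 at E14.5 alone and 3 at P9 alone. The mean counts closest to the limit were 19.6 for *Slc12a8* and 17.1 for *Slc16a5*, which stayed out, and 20.3 for *Slc7a7* and 20.4 for *Slc22a3*, which were kept. Selection by symbol also took in 4 genes that encode no carrier: *Slc9a3r1* and *Slc9a3r2*, scaffold proteins that bind carriers, *Slc4a1ap*, which encodes an adaptor protein, and *Slc7a6os*, which lies opposite *Slc7a6*. The members fell into 11 substrate classes, of which inorganic ions and pH (38 genes), amino acids (33) and nucleotide sugars and carriers of the Golgi or ER (25) were the largest.

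The study deleted *Isl1*, the gene of a LIM-homeodomain transcription factor, in the endocrine lineage of the mouse pancreas, and asked how endocrine cells form and mature without it. *Isl1CKO* cells were *Isl1* f/f with *Neurod1*-Cre and the Ai14 tdTomato reporter, and control cells carried 1 floxed and 1 wild-type *Isl1* allele with the same Cre and reporter, although their labels call them wild type. Each library held RNA from 100 tdTomato+ cells sorted by FACS, so both groups were limited to cells in which *Neurod1*-Cre had been active, whichever hormone they made. In the embryo, at E14.5, there were 6 control and 5 *Isl1CKO* libraries, and at postnatal day 9 (P9) 5 control and 6 *Isl1CKO* libraries, from littermates of both sexes on a C57BL/6 background. P9 pancreas was digested with collagenase and trypsin and E14.5 pancreas with trypsin alone, so age and dissociation cannot be told apart.

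Beta cells sense glucose and amino acids after carriers bring them into the cell. Cationic amino acids such as arginine depolarise the membrane as they enter and so promote insulin release, and alpha cells answer to amino acids in the blood with glucagon. Many amino acid carriers are pairs of a light chain, which moves the substrate, and a heavy chain, which brings the pair to the cell surface.

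Libraries held 8477482 to 13580985 counts. Values are given as scaled counts, which are counts divided by the TMM-scaled size of the library and put on 1 scale over all 22 libraries. A fold change was tested with edgeR's quasi-likelihood test, with p-values adjusted over all genes tested, and a gene was called where the adjusted p was under 0.05. Markers of endocrine cells summed to 117680 to 163860 scaled counts in E14.5 controls and 222840 to 255080 in *Isl1CKO*, and to 214970 to 244770 and 579080 to 830130 at P9, so that the genotypes did not overlap at either age. Of these 7 markers, 2 rose and 1 fell at E14.5 and 2 rose at P9, and their part in the results was not tested. Markers of endothelial and red blood cells were low, with summed levels of at most 134 and 74.2 scaled counts in any library. Duct cell markers summed to 5059 to 6074 in E14.5 controls and 5666 to 7340 in *Isl1CKO*. At P9 they summed to 2593 to 3320 and 2849.5 to 5798.5. Of 5 tested at E14.5, 1 rose, against 0.602% of all genes. Schwann cell and neuron markers summed to 517 to 948 and 399 to 837 at E14.5. At P9 they summed to 1093 to 1905 and 687 to 1247, and 1 of 3 tested fell, against 2.14% of all genes. The part of these markers was not tested. The 8 islet hormone genes took 51.1 to 56.4% of the counts in P9 controls but 14 to 30.2% in P9 *Isl1CKO*, and 0.71 to 6.17% at E14.5. *Isl1* itself had a median of 11223 scaled counts in E14.5 controls and 8234 in *Isl1CKO*, and of 5708 and 12249 at P9. These counts include exons that the floxed allele may keep, so they do not check the deletion. *Xist* was above 1000 scaled counts in 2 of 6 control and 3 of 5 *Isl1CKO* libraries at E14.5, and in 3 of 5 and 2 of 6 at P9. Since each library is a bulk sample, fewer cells of a type and less RNA per cell cannot be told apart.

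*Slc38a5* stood above all other members in the embryonic cells. It encodes SNAT5, a carrier that exchanges glutamine, asparagine, histidine and serine with sodium against protons, and in mice it is known to rise in alpha cells when glucagon signalling is blocked. Per kilobase of exon, its mean level was 14245 scaled counts in E14.5 controls and 18397 in E14.5 *Isl1CKO*, while the next member, the ER nucleotide carrier *Slc35b1*, stood at 926 and 1064. *Slc38a5* took 45.3 to 63.4% of the summed per-kilobase level of all 178 members in E14.5 control libraries and 57.5 to 63.6% in *Isl1CKO*. In P9 controls it took 1.49 to 8.87%, and in P9 *Isl1CKO* 10.7 to 49.0%. Its place in the order of members was 1 in 3 of the 4 groups and 5 in P9 controls, where *Slc35b1* came first.

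**Figure D1:**
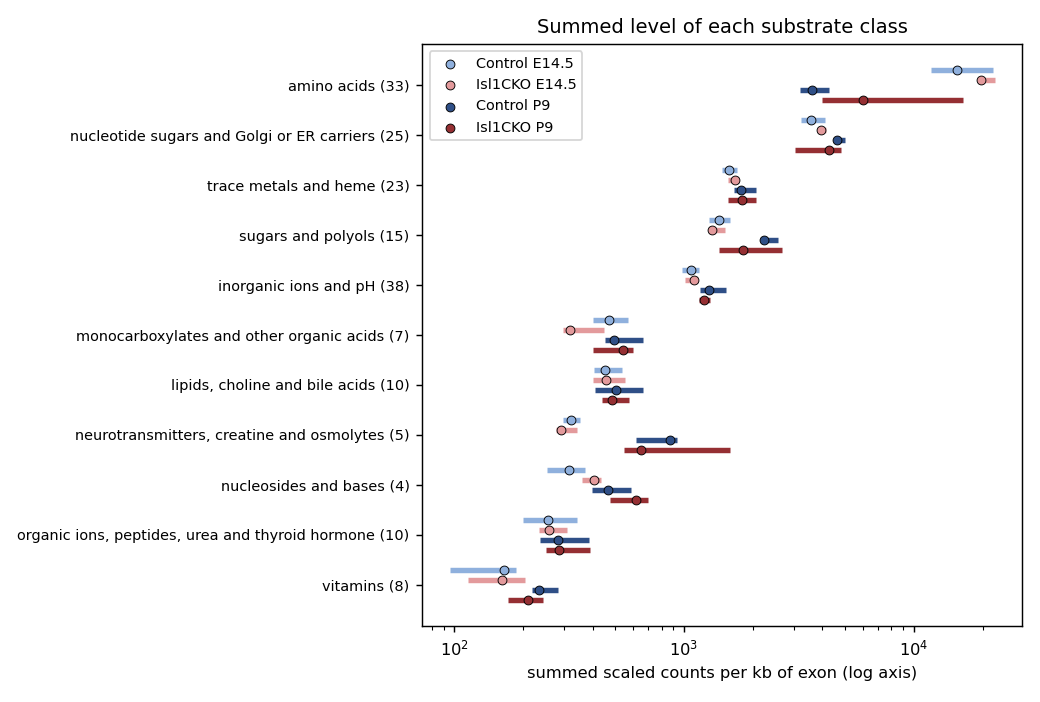
Summed scaled counts per kilobase of exon over the members of each substrate class, on a log axis. Dots are medians over libraries, bars run from the lowest to the highest library, and the number of genes in a class is in brackets. Amino acid carriers ranged from 11956 to 22633 at E14.5 and from 3200 to 4272 in P9 controls.

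Amino acid carriers had the highest summed level of the 11 classes in 3 of the 4 groups. In P9 controls the carriers of nucleotide sugars and of the Golgi or ER stood above them. The summed level of amino acid carriers had a median of 15461 scaled counts per kilobase in E14.5 controls, 19708 in E14.5 *Isl1CKO*, 3614 in P9 controls and 5987 in P9 *Isl1CKO*. *Slc38a5* alone had group means of 14245, 18397, 669 and 5133 per kilobase in the same order, so the first rank of the class in 3 groups rested on this 1 gene. The nucleotide sugar and Golgi or ER class had medians of 3563, 3965, 4624 and 4300. Sums for sugars and polyols were 1280 to 1593 in E14.5 controls and 2201 to 2561 in P9 controls, which do not overlap. The neurotransmitter, creatine and osmolyte class stood at 298 to 353 and 615 to 934 in the same groups. Its main member was the taurine carrier *Slc6a6*, with 1571 ± 148 scaled counts (SD, n = 6) in E14.5 controls and 4769 ± 641 (SD, n = 5) in P9 controls. *Slc6a6* reached 9880 in P9 *Isl1CKO* library 5, whereas the other 5 libraries of that group held 3180 to 3820. Vitamin carriers had the lowest sums, with medians of 162 to 233 over the groups. Comparisons of these levels between the ages rest on TMM factors of 1.26 to 1.35 in E14.5 controls and 0.55 to 0.63 in P9 controls. Scaling by total counts instead moved the median age change of all genes in controls from -0.04 to -1.21 on the log2 scale. Class sums were not computed on that scale.

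The leading member was the same in all 4 groups for 5 of the 11 classes. *Slc35b1* led its class throughout, as did *Slc50a1*, a sugar efflux carrier, *Slc16a12*, a creatine carrier, *Slc6a6*, and *Slc22a17*, a receptor for a siderophore-binding protein. *Slc44a3* led the choline and lipid carriers at E14.5 and *Slc44a1* at P9, in both genotypes. The scaffold gene *Slc9a3r1* led the ion class at E14.5 and *Slc4a7*, a sodium bicarbonate carrier, at P9. Among nucleoside carriers *Slc29a1* led 3 groups, and *Slc29a4* led E14.5 controls with 150 scaled counts per kilobase. The copper carrier *Slc31a2* led the metal class in 3 groups, at 204 per kilobase in E14.5 controls, and the heme carrier *Slc48a1* led it in E14.5 *Isl1CKO*, also at 204. The thiamine carrier *Slc19a2* and the lysosomal carrier *Slc46a3* took turns at the head of the vitamin class, at 33.1 to 86.6 per kilobase. In P9 controls the amino acid class was led by *Slc3a2*, the heavy chain of the paired amino acid carriers, at 770 per kilobase against 669 for *Slc38a5*.

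At E14.5 the members that passed the test were all lower in *Isl1CKO*, and all carry small organic molecules. They were *Slc7a2* and *Slc7a14* of the cationic amino acid family, *Slc16a10*, which carries aromatic amino acids and thyroid hormone, and *Slc16a12*. Of 175 members tested, 4 fell, against a background of 0.827% of 15960 genes tested that fell. No member rose, against 0.602% of all genes, while DESeq2 called 3 higher and limma-voom called 0. At an unadjusted p under 0.05 by edgeR, 11 members were higher and 13 lower. Together these were 13.7% of members, against 11.4% of all genes. The median log2 fold change was 0.06 over the members and 0 over all genes tested to 2 decimals. In the same 4 members the library ranges of control and *Isl1CKO* did not overlap, and the background of genes with such ranges was 1.14% on the higher side and 1.28% on the lower side.

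*Slc7a2* encodes CAT2, which carries arginine, lysine and ornithine into the cell, and lies on chromosome 8 of GRCm38 from 40862396 to 40922308. In E14.5 controls it ran from 1506 to 2216 scaled counts with a median of 1771. The *Isl1CKO* libraries held 855, 789, 904, 776 and 856. Every *Isl1CKO* library was below every control library, and the 5 values lay close together. The log2 fold change was -1.12 (SE 0.12, adjusted p = 0.00022 from edgeR). At P9 the controls held 3358, 3466, 3670, 2775 and 3737 scaled counts, and *Isl1CKO* ran from 1384 to 2616 with a median of 1757. The groups were again apart, with a log2 fold change of -0.88 (SE 0.17, adjusted p = 0.0069). The rise with age in controls was 0.90 on the log2 scale (SE 0.15, adjusted p = 5.5e-05), and the medians of P9 *Isl1CKO* and E14.5 controls were 1757 and 1771. Both comparisons hold for TMM scaling across the ages. Scaling by total counts moved the median age change of all genes in controls from -0.04 to -1.21. Of the 9135 exon bases of *Slc7a2*, 635 also lie in *Gm26584* on the other strand, and without strand the reads there cannot be told apart.

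*Slc7a14* encodes a lysosomal relative of the cationic amino acid carriers, on chromosome 3 from 31202858 to 31310378. It ran from 3164 to 3861 scaled counts with a median of 3565 in E14.5 controls. The 5 *Isl1CKO* libraries held 2027, 1878, 2028, 1918 and 1521. At P9 the controls held 2445, 3468, 2274, 2368 and 2323, and *Isl1CKO* ran from 1066 to 1719 with a median of 1238. No library of *Isl1CKO* reached the lowest control at either age. This was a log2 fold change of -0.92 at E14.5 (SE 0.088, adjusted p = 8.7e-05 from edgeR) and -0.97 at P9 (SE 0.17, adjusted p = 0.0040). The difference between these effects was -0.05 (SE 0.19, adjusted p = 0.95).

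*Slc16a10* encodes TAT1, which lets aromatic amino acids pass in both directions, on chromosome 10 from 40033532 to 40142258. Controls at E14.5 ran from 1264 to 1568 scaled counts with a median of 1380, and *Isl1CKO* libraries held 1097, 1059, 912, 874 and 770. At P9 the controls held 2404, 2436, 2580, 1941 and 2843, and *Isl1CKO* ran from 420 to 1718 with a median of 1237. All *Isl1CKO* libraries were below all controls at both ages. Log2 fold changes were -0.57 at E14.5 (SE 0.11, adjusted p = 0.016 from edgeR) and -1.0 at P9 (SE 0.27, adjusted p = 0.042). With all 4 groups in 1 edgeR model the E14.5 value was -0.57 and did not pass (adjusted p = 0.60). The P9 value of -1.0 passed in that model (adjusted p = 0.0032), as did the E14.5 falls of *Slc7a2*, *Slc7a14* and *Slc16a12*. In the main fit the P9 call was lost when any of the 5 controls or *Isl1CKO* library 3, 4 or 6 was left out, with adjusted p of 0.058 to 0.097. Without *Isl1CKO* library 5, which held the lowest value of 420, the adjusted p was 0.0078.

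*Slc16a12* passed the test in the embryo and not at P9. E14.5 controls ran from 1236 to 1887 scaled counts with a median of 1460, and *Isl1CKO* libraries held 685, 909, 1167, 942 and 743, so that the ranges did not overlap. Its log2 fold change was -0.76 (SE 0.15, adjusted p = 0.018 from edgeR), and 0.064 was the adjusted p without *Isl1CKO* library 5. At P9 the value was -0.23 (SE 0.16, adjusted p = 0.51), and the difference between the ages did not pass the test (0.54, SE 0.22, adjusted p = 0.22). Macrophage markers summed to 372 to 1275 scaled counts in E14.5 *Isl1CKO* and 359 to 577 in controls, with 2 and 5 of 10 markers below a mean of 5, and liver cell markers to 902 to 2783 and 403 to 1061, with 0 of 9 below that mean in both groups. Of the 9 liver cell markers tested, 2 rose by edgeR, against 0.602% of all genes. At an unadjusted p under 0.05 by edgeR 4 were higher, and the median log2 fold change was 0.54. Of 5 macrophage markers tested, 0 were called by edgeR and 3 were higher at an unadjusted p under 0.05, with a median log2 fold change of 1.84. *Isl1CKO* libraries 3, 4 and 5, where macrophage markers were highest, were also left out, a choice made after the data were seen. With 2 *Isl1CKO* libraries left, *Slc7a2* and *Slc7a14* were at -1.14 and -0.85 on the log2 scale and passed (adjusted p = 0.029 and 0.0094). *Slc16a10* at -0.37 (adjusted p = 0.47) and *Slc16a12* at -0.92 (adjusted p = 0.095) did not pass. Mesenchyme markers summed to 120 to 237 in E14.5 *Isl1CKO* and 202 to 938 in controls, with 1 and 2 of 7 below a mean of 5. Of 4 such markers tested, 0 were called by edgeR and 3 were lower at an unadjusted p under 0.05, with a median log2 fold change of -1.57. Their part in the falls of the 4 members was not tested.

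**Figure D2:**
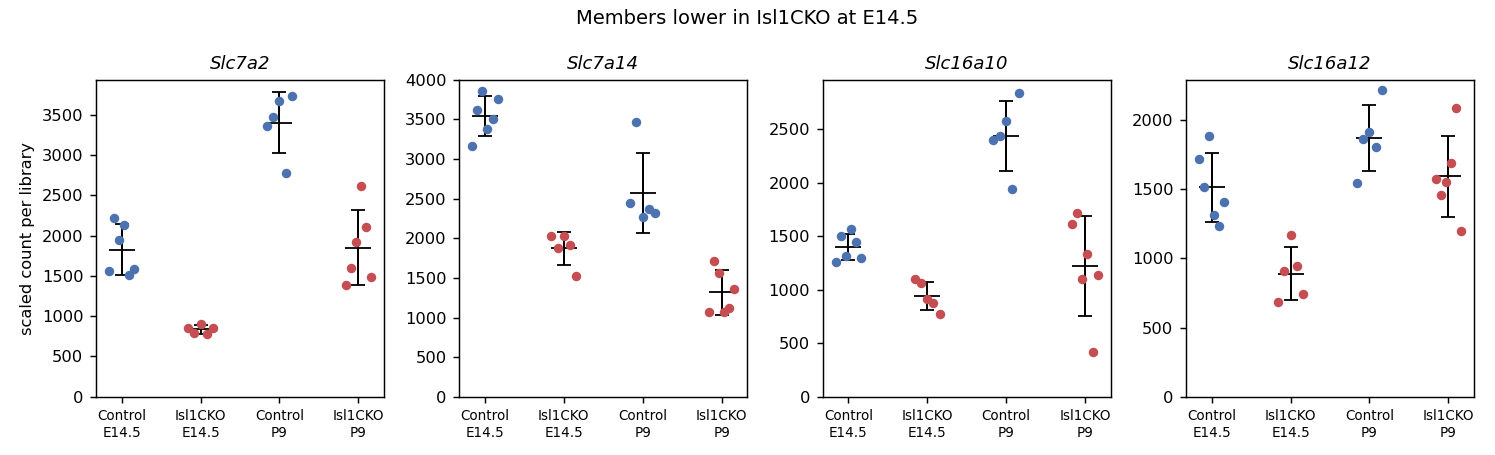
Scaled counts of the 4 members that were lower in *Isl1CKO* at E14.5. Each dot is a library (controls blue, *Isl1CKO* red), and bars are mean ± SD for 6, 5, 5 and 6 libraries. *Slc7a2*, *Slc7a14* and *Slc16a10* were also lower at P9, and *Slc16a12* passed the test at E14.5 only.

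Promoters are shown for 2 of the genes that were lower at both ages and for 2 amino acid carriers that were higher at P9, since the 2 genes of each set were called in the same direction. The windows are 250 bases before to 50 bases after the start of the gene in RefSeq on GRCm38.p6, and 141 of the 178 members have at least 1 window. Capitals mark TAAT, the core that homeodomain proteins bind, on either strand.
Slc7a14, chr3:31310270-31310569, minus strand: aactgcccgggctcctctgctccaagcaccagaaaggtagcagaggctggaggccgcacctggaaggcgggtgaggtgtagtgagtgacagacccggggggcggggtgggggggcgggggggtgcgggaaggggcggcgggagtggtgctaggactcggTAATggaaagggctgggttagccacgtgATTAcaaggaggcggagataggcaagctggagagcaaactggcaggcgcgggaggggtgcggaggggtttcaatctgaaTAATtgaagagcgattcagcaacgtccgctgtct
Slc16a10, chr10:40142205-40142504, minus strand: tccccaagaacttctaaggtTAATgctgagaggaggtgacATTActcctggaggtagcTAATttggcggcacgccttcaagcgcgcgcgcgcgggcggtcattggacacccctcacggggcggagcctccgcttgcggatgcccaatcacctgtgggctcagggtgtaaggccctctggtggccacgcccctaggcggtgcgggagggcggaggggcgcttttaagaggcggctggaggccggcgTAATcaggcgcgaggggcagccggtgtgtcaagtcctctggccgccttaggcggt
Slc38a5, chrX:8271131-8271430, plus strand: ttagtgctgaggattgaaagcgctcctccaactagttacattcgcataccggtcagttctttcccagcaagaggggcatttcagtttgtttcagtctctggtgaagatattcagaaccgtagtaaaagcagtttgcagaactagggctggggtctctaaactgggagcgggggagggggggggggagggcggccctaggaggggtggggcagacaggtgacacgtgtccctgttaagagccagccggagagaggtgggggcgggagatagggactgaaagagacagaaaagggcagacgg
Slc38a11, chr2:65363977-65364276, minus strand: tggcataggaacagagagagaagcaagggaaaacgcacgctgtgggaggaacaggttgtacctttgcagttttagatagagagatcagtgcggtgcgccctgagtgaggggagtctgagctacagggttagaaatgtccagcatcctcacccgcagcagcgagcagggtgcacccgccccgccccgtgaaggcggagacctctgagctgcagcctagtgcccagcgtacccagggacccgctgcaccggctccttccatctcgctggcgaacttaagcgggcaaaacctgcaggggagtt
TAAT occurs 3 times in the *Slc7a14* window, 4 times in that of *Slc16a10* and 0 times in those of *Slc38a5* and *Slc38a11*. The *Slc38a5* window starts at 8271131, while GENCODE starts the gene at 8271133. That window thus lies almost wholly inside the GENCODE gene, and the sequence before the GENCODE start was not searched. TAAT occurs in 58% of all 32851 windows and in 39.7% of the 184 windows of members. Among other members called at P9, *Slc12a1*, which was higher, has 5. Of those that were lower, *Slc7a8* has 3, *Slc4a7* has 2 and *Slc5a1*, *Slc2a6* and *Slc3a2* have 0. *Slc37a3*, also lower, has 2 or 0 depending on the window. The longer letters CTAATNG, which contain that core and resemble a LIM-homeodomain site, occur on either strand in 5.76% of all windows, and TGATGNAA, the C/EBP-ATF element of amino acid response genes, in 3.97%. Neither is in the 4 windows shown.

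At P9 more members passed the test, among them carriers of sugars, amino acids and ions, and the largest called differences were in *Slc5a1*, *Slc12a1* and *Slc2a6*. In *Isl1CKO*, 3 members rose (*Slc38a5*, *Slc38a11* and *Slc12a1*) and 9 fell (*Slc5a1*, *Slc2a6*, *Slc37a3*, *Slc7a8*, *Slc7a14*, *Slc7a2*, *Slc16a10*, *Slc4a7* and *Slc3a2*). These are counts out of 156 members tested, against a background of 2.66% of 13964 genes that rose and 2.14% that fell. Another 22 members were too low to test at P9. Of the 12 called members, 7 were amino acid carriers out of 27 tested in that class, 3 were sugar carriers out of 15 and 2 were ion carriers out of 31. The median log2 fold change was -0.06 over the members and 0.02 over all genes tested. Ranges that did not overlap were found for 3 members on the higher side and 9 on the lower side, against backgrounds of 2.91% and 2.54%. They were not all the called genes, since the higher side included the monocarboxylate family gene *Slc16a6* and the lower side the urea carrier *Slc14a2*, the thiamine carrier *Slc19a2* and the glucose carrier *Slc2a3*, none of which passed the test (adjusted p of 0.059, 0.052, 0.075 and 0.54). These 4 genes were chosen after their values were seen. Scaling by total counts moved the median of all genes to 0.68 and the calls to 30 higher and 2 lower, of which 5 were among the 12. *Slc38a5*, *Slc38a11*, *Slc12a1*, *Slc5a1* and *Slc2a6* held. *Slc7a2*, *Slc7a14*, *Slc16a10*, *Slc37a3* and *Slc7a8* stayed lower without passing, at -0.22, -0.32, -0.38, -0.77 and -0.29 on the log2 scale and adjusted p of 0.078 to 0.41. *Slc3a2* and *Slc4a7* turned to 0.13 and 0.055 and did not pass.

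**Figure D3:**
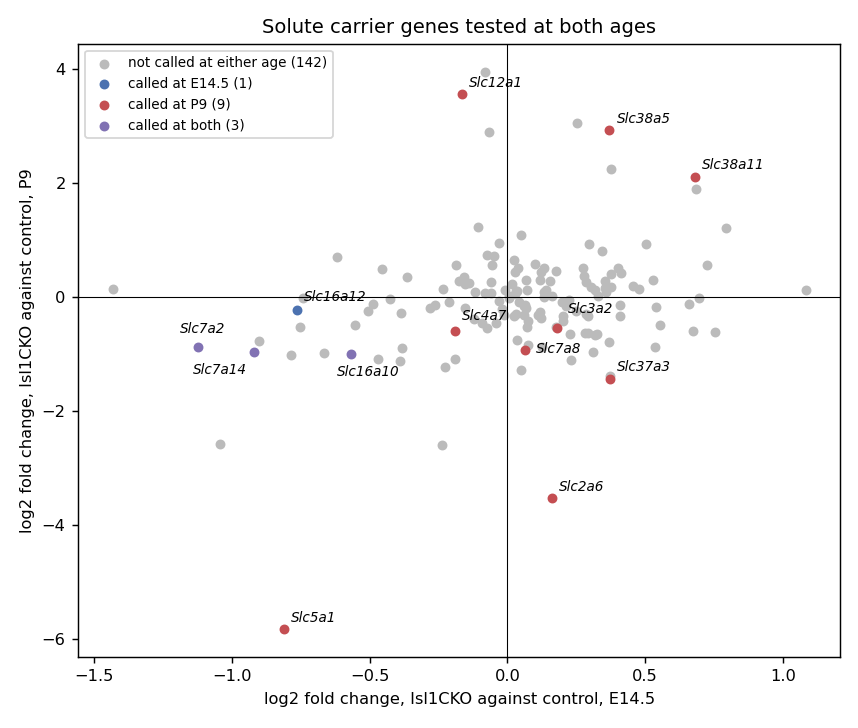
Log2 fold change of *Isl1CKO* against control at E14.5 (x axis) and at P9 (y axis) for the 155 members tested at both ages. Grey dots passed the test at neither age (142), blue at E14.5 (1), red at P9 (9) and purple at both (3). *Slc5a1* and *Slc2a6* lie lowest and *Slc12a1* and *Slc38a5* are the highest of the called members.

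Both amino acid carriers that rose at P9 belong to the *Slc38* family. *Slc38a5*, on chromosome X from 8271133 to 8280179, held 1584, 1353, 553, 3305 and 697 scaled counts in the P9 controls. In *Isl1CKO* it ran from 3989 to 31508 with a median of 8368, above every control. This was a 7.64-fold difference, or 2.93 on the log2 scale (SE 0.55, adjusted p = 0.0056 from edgeR). *Isl1CKO* library 1 held 31508 while the others held at most 9891, and without it the log2 fold change was 2.32, with a call in each of the 11 fits that leave out a library. In libraries with *Xist* at or below 1000 scaled counts, controls held 1584 and 697 and *Isl1CKO* 31508, 3989, 8786 and 7951. Where *Xist* was higher, controls held 1353, 553 and 3305 and *Isl1CKO* 9891 and 6894. Since every *Isl1CKO* library was above every control, any such split leaves the groups apart, and a part of sex was not tested.

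*Slc38a11* encodes a member of the same family whose substrate is not well known. It held 30.9, 53.7, 28.7, 40.8 and 45.1 scaled counts in P9 controls and 46.3 to 315 in *Isl1CKO*, with a median of 180. *Isl1CKO* library 1, at 46.3, was within the range of the controls and the other 5 were above it. On the log2 scale the difference was 2.11 (SE 0.52, adjusted p = 0.030 from edgeR). That call was lost without control library 1, 3, 4 or 5 or *Isl1CKO* library 2, 4, 5 or 6, with adjusted p of 0.054 to 0.070. At E14.5 the medians were 110 in controls and 183 in *Isl1CKO*, with an adjusted p of 0.27.

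A heavy chain and 1 of its light chains were lower at P9. *Slc3a2* encodes the heavy chain 4F2hc and *Slc7a8* encodes LAT2, a light chain for neutral amino acids that needs it. *Slc3a2* held 2361, 2546, 2377, 2806 and 3489 scaled counts in P9 controls and 1602 to 2339 in *Isl1CKO*, with a median of 1760. Its log2 fold change was -0.54 (SE 0.15, adjusted p = 0.048 from edgeR), and the groups did not overlap. The call lay at the threshold and was lost in 10 of 11 fits that leave out a library (all but that without *Isl1CKO* library 1), with adjusted p of 0.055 to 0.13. *Slc7a8* held 1046, 1003, 989, 687 and 951.6 in controls and 329 to 707 in *Isl1CKO*, with a median of 495. Control library 4, at 687, was below *Isl1CKO* library 1, at 707. It differed by -0.93 on the log2 scale (SE 0.21, adjusted p = 0.018) and the call held without any single library. The other 4 light chains of 4F2hc among the members did not pass at P9, with log2 fold changes of 0.29 for *Slc7a5*, 0.20 for *Slc7a6*, 0.56 for *Slc7a7* and -0.06 for *Slc7a11*. These were chosen after their values were seen.

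The sodium-glucose carrier *Slc5a1* was the member with the largest fall. It encodes SGLT1, which takes up glucose and galactose with sodium. P9 controls held 36, 159, 82.8, 130 and 163 scaled counts, and the 6 *Isl1CKO* libraries ran from 0 to 4.63 with a median of 2.02. The groups were far apart. *Isl1CKO* libraries held 8 counts in all and controls 324, a ratio of 65.7 (95% interval 32.9 to 153, from the counts alone), and the fitted log2 fold change was -5.83 (SE 0.87, adjusted p = 0.0011 from edgeR). At E14.5 the levels were 13.5 to 104 in controls and 19.3, 61.5, 36.6, 15.6 and 24 in *Isl1CKO*, which overlap. *Slc5a1* lies on chromosome 5 from 33104219 to 33162870.

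*Slc2a6* encodes GLUT6, a hexose carrier of intracellular membranes. It held 49.7, 257, 15.2, 71.8 and 91.8 scaled counts in P9 controls and 1.54 to 27 in *Isl1CKO*, with a median of 5.91. Control library 3, at 15.2, was below *Isl1CKO* library 1, at 27. The log2 fold change was -3.53 (SE 0.87, adjusted p = 0.029 from edgeR). Without control library 2 it was -2.77 (adjusted p = 0.10), and the call was also lost without control library 4 or 5 or *Isl1CKO* library 2, 3, 4 or 6 (adjusted p of 0.051 to 0.061), while without *Isl1CKO* library 1 the gene was too low to test. *Slc37a3*, a sugar phosphate family carrier that is found on lysosomes in human cells, held 911, 857, 555, 604 and 728 in controls and 150.5 to 399.9 in *Isl1CKO*, with a median of 256. No *Isl1CKO* library reached the controls, and the log2 fold change was -1.43 (SE 0.30, adjusted p = 0.011).

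The ion carriers that passed at P9 moved in opposite directions. *Slc12a1* encodes NKCC2, the sodium, potassium and chloride carrier that loop diuretics block in the kidney. It held 3.43, 5.55, 3.38, 5.82 and 45.1 scaled counts in P9 controls and 49.7 to 263 in *Isl1CKO*, with a median of 164. The groups did not overlap, although control library 5 came close. The log2 fold change was 3.56 (SE 0.79, adjusted p = 0.016 from edgeR) and 5.01 without that library. *Slc4a7* encodes NBCn1, which brings in bicarbonate with sodium, and held 3299, 4177, 4715, 3728 and 4429 in controls and 2352 to 3416 in *Isl1CKO*, with a median of 2549. *Isl1CKO* library 2, at 3416, was above control library 1, at 3299. Its log2 fold change was -0.60 (SE 0.14, adjusted p = 0.020), and the call was lost without control library 2, 3 or 5, with adjusted p of 0.051 to 0.059.

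Acinar cell markers summed to 765 to 15696 scaled counts in P9 controls and 327 to 3265 in *Isl1CKO*, with 2 of 10 markers below a mean of 5 in both groups. Of 8 acinar cell markers tested, 0 were called by edgeR and 5 were lower at an unadjusted p under 0.05. Their median log2 fold change was -1.745. Without control library 3, where they were highest, and *Isl1CKO* library 5, which stood furthest from its group over all genes, 2 members rose and 9 fell, and 7 of these 11 calls were among the 12 above. The genes that no longer passed were *Slc12a1* at 3.27 on the log2 scale (adjusted p = 0.053), *Slc38a11* at 1.76 (0.12), *Slc3a2* at -0.57 (0.068), *Slc4a7* at -0.50 (0.066) and *Slc7a8* at -0.81 (0.050). Each kept its direction, with 3.56, 2.11, -0.54, -0.60 and -0.93 over all libraries. The 2 libraries were chosen after the data were seen. At P9 the median log2 fold change was -1.80 over 3 mesenchyme markers tested, 0.60 over 4 liver cell markers and -0.65 over 4 macrophage markers. Of these, 0 were called by edgeR. The part of acinar cell and these other markers was not tested.

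**Figure D4:**
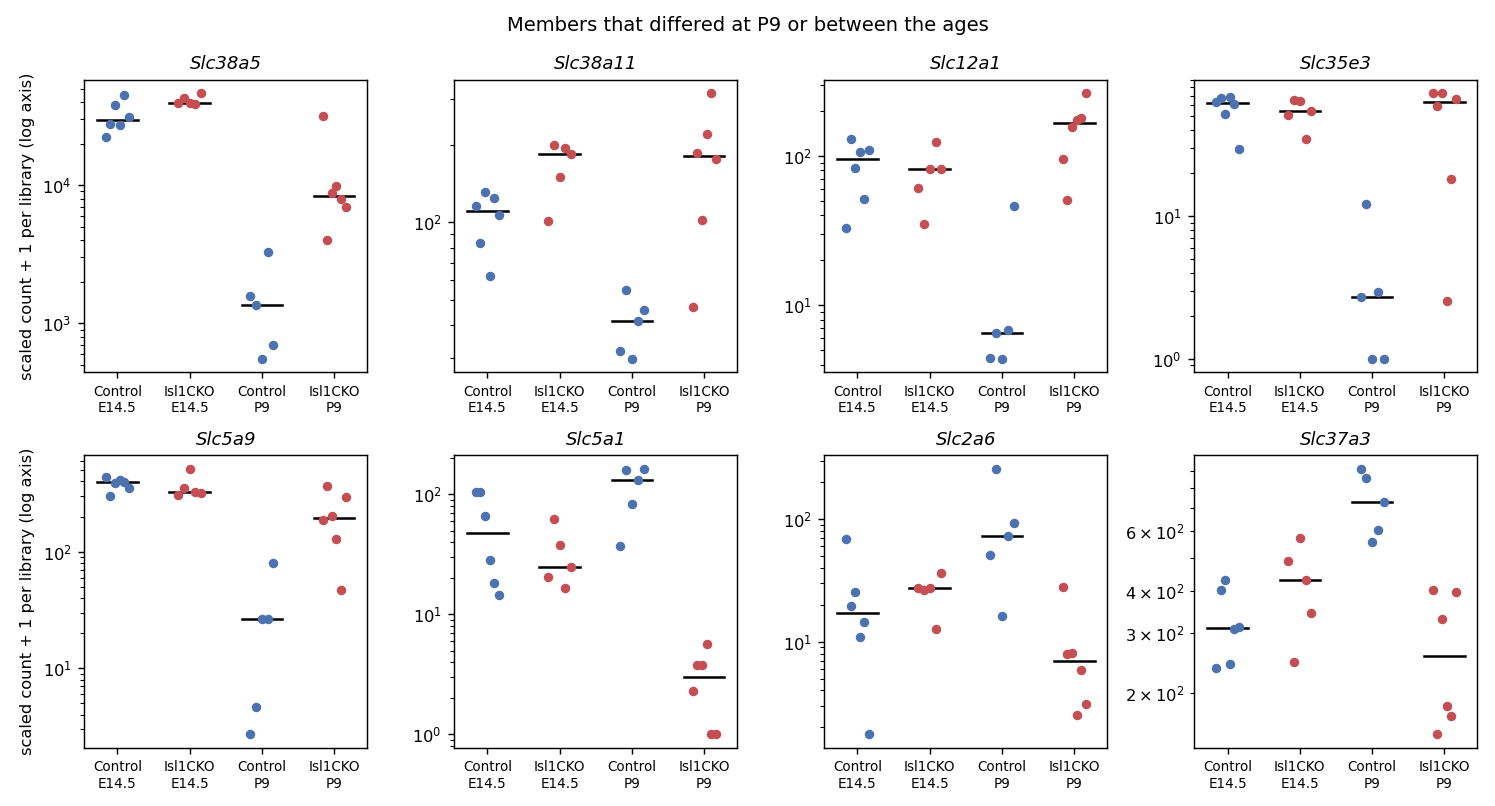
Scaled counts plus 1, on a log axis, of 8 members that differed at P9 or between the ages. Each dot is a library (controls blue, *Isl1CKO* red) and each line is the median of 6, 5, 5 or 6 libraries. *Slc38a5*, *Slc38a11*, *Slc12a1*, *Slc35e3* and *Slc5a9* were low in P9 controls, and *Slc5a1* was nearly absent in P9 *Isl1CKO*.

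The effect of *Isl1* deletion on a member could differ between the ages, which the interaction term of a model over all 22 libraries tested. Of 177 members tested, 4 had a higher effect at P9 (*Slc38a5*, *Slc12a1*, *Slc5a9* and *Slc35e3*) and 5 a lower one (*Slc5a1*, *Slc37a3*, *Slc38a10*, *Slc3a2* and *Slc35b1*), against a background of 1.23% and 0.851% of 17265 genes. The difference of log2 fold changes was 2.57 for *Slc38a5* (SE 0.59, adjusted p = 0.021 from edgeR), 3.72 for *Slc12a1* (adjusted p = 0.022), -5.07 for *Slc5a1* (adjusted p = 0.0071) and -1.80 for *Slc37a3* (adjusted p = 0.013). Without P9 *Isl1CKO* library 1 the value for *Slc38a5* was 1.96, and without P9 control library 5 that for *Slc12a1* was 5.21, and both calls held. Scaling by total counts moved the split from 4 higher and 5 lower to 21 higher and 2 lower. It also moved the median difference over all genes from 0.06 to 0.68.

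*Slc5a9* encodes SGLT4, a sodium-coupled carrier of mannose and other sugars. It ran from 301 to 436 scaled counts in E14.5 controls and held 305, 350, 513, 322 and 315 in E14.5 *Isl1CKO*, then 1.71, 3.70, 25.4, 25.2 and 78.9 in P9 controls and 45.6 to 362 in P9 *Isl1CKO*. The difference between the ages was 2.96 (SE 0.74, adjusted p = 0.035 from edgeR). It was 3.92 without P9 control library 5, and the call was lost in 14 of 22 fits that leave out a library, with adjusted p of 0.050 to 0.073. It held without E14.5 control library 2 or 6, P9 control library 1 or 5, or P9 *Isl1CKO* library 1, 3, 4 or 5. *Slc35e3*, a nucleotide sugar family member, held 28.4 to 67.8 in E14.5 controls, 0 to 11.1 in P9 controls with a median of 1.71 and 1.54 to 72 in P9 *Isl1CKO* with a median of 61.7. P9 *Isl1CKO* library 4, at 1.54, was as low as the controls. The difference was 4.07 (SE 1.1, adjusted p = 0.047), 5.66 without P9 control library 2, and the call was lost in 19 of 22 fits (adjusted p of 0.051 to 0.086), all but those without P9 control library 2 or P9 *Isl1CKO* library 4 or 5.

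*Slc38a10*, an amino acid carrier family member, held 640 to 900 scaled counts in E14.5 controls and 884 to 1211 in E14.5 *Isl1CKO*, and 1337 to 2246 and 783 to 1409 at P9. The signs of its effects were opposite (0.33 and -0.65 on the log2 scale), neither passed on its own (adjusted p = 0.25 and 0.052), and the difference of -0.97 did (SE 0.22, adjusted p = 0.018 from edgeR). *Slc3a2* gave 0.18 and -0.54, with a difference of -0.72 (adjusted p = 0.029) that was lost without E14.5 *Isl1CKO* library 2, 3 or 4 or P9 control library 5 (adjusted p of 0.051 to 0.067). *Slc35b1*, the carrier that brings ATP into the ER, gave 0.20 and -0.43. Its difference of -0.62 (adjusted p = 0.048) was lost in 17 of 22 fits that leave out a library (adjusted p of 0.052 to 0.096), all but those without E14.5 control library 1, P9 control library 3 or P9 *Isl1CKO* library 1, 2 or 3.

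In controls, many members changed between E14.5 and P9. Of 177 members tested, 45 were higher at P9 and 27 lower, against a background of 15.8% of 17265 genes that rose and 15.2% that fell. The median log2 fold change was 0.17 over the members and -0.04 over all genes. Under total-count scaling the median of all genes was -1.21, and 3 members rose and 91 fell. Carriers of nucleotide sugars and of the Golgi or ER (9 higher, 3 lower of 25 tested), sugars (6 and 3 of 15) and metals (6 and 3 of 22) had more rises, and amino acid carriers had more falls (7 and 11 of 33). Neurotransmitter and osmolyte carriers had 3 rises among 5. This comparison shares its P9 controls with the P9 comparison and its E14.5 controls with the E14.5 comparison.

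**Figure D5:**
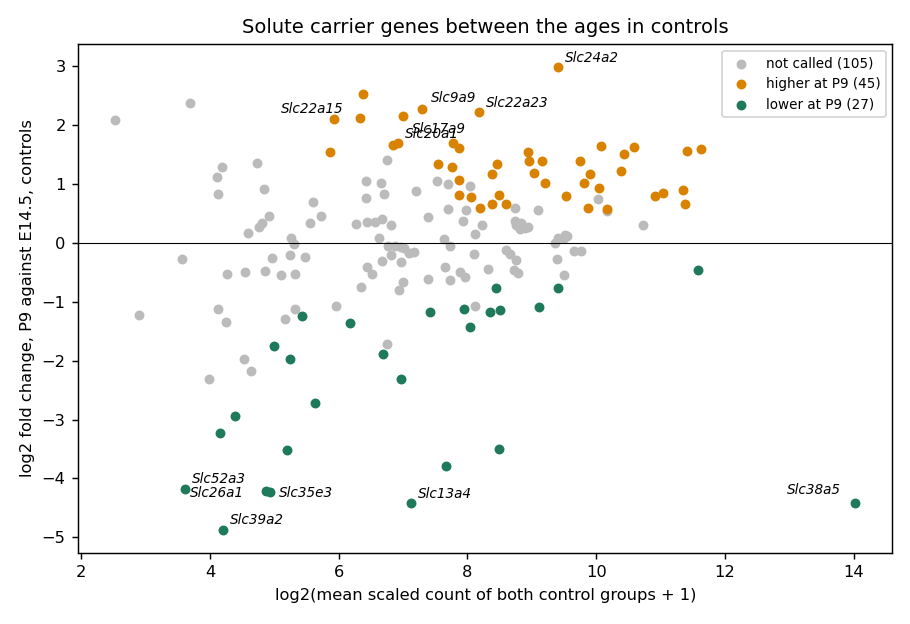
Log2 fold change from E14.5 to P9 in controls against the mean level of the 177 members tested, as log2 of the scaled count plus 1. Orange dots are the 45 members higher at P9, green dots the 27 lower and grey dots the 105 that did not pass. Named are the 6 largest rises and falls with ranges that do not overlap.

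The 6 largest rises among members with separate ranges were carriers of ions, vesicle contents and organic ions. *Slc24a2*, a sodium, calcium and potassium exchanger, went from 151 ± 61.9 scaled counts (SD, n = 6) to 1202 ± 236 (SD, n = 5), a log2 fold change of 2.99 (SE 0.27, adjusted p = 1.5e-08 from edgeR). *Slc9a9*, a sodium and proton exchanger of endosomes, rose by 2.27 and the organic ion family gene *Slc22a23* by 2.23. *Slc17a9*, which loads ATP into vesicles, rose by 2.15, *Slc22a15* by 2.12 and the phosphate carrier *Slc20a1* by 1.70. Of the exon bases of *Slc20a1*, 13.1% overlap other genes on the opposite strand. Under total-count scaling all 6 kept their sign and *Slc24a2* and *Slc22a23* passed.

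The 6 largest falls, by fitted value, included 4 genes that were nearly silent in P9 controls. *Slc39a2*, a zinc carrier, held 10.7 to 63.6 scaled counts at E14.5 and 0, 0, 3.38, 0 and 1.61 at P9. Its P9 libraries held 3 counts in all and its E14.5 libraries 265, a ratio of 32.2 (95% interval 10.9 to 157 from counting). The riboflavin carrier *Slc52a3* also held 3 counts at P9, against 167, a ratio of 20.3 (6.84 to 99.5). *Slc26a1*, a sulfate and oxalate carrier, and *Slc35e3* held 8 counts each, with ratios of 19.2 (9.64 to 44.7) and 19.9 (10 to 46.4). Leaving out 1 P9 control library altered the fitted fold change of each by a factor of over 1.5. On the log2 scale it went to -5.93 from -4.87 for *Slc39a2* (library 3), to -5.29 from -4.18 for *Slc52a3* (library 2), to -4.81 from -4.22 for *Slc26a1* (library 5) and to -5.82 from -4.22 for *Slc35e3* (library 2). *Slc13a4*, a sulfate carrier, fell by 4.42 (SE 0.51, adjusted p = 5.6e-07 from edgeR), from 165 to 347 at E14.5 to 17.1, 7.41, 16.9, 9.7 and 9.66 at P9.

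*Slc38a5* fell by 4.41 from E14.5 to P9 in controls (SE 0.48, adjusted p = 2.5e-07 from edgeR), from a mean of 31923 ± 8215 scaled counts (SD, n = 6) to 1499 ± 1099 (SD, n = 5). The P9 comparison, which shares the P9 controls, gave 2.93 for the same gene. Side by side, the change with age and the *Isl1CKO* effect at P9 were -2.72 and 3.56 for *Slc12a1*, -3.79 and 2.89 for *Slc5a9*, -4.22 and 3.95 for *Slc35e3* and -1.37 and 2.11 for *Slc38a11*. In the other direction they were 0.90 and -0.88 for *Slc7a2*, 0.80 and -1.0 for *Slc16a10*, 1.19 and -1.43 for *Slc37a3*, 0.79 and -0.93 for *Slc7a8*, 1.57 and -0.60 for *Slc4a7* and 0.86 and -0.54 for *Slc3a2*. For *Slc7a14* both values were negative, at -0.46 and -0.97. The P9 effects of *Slc5a9* and *Slc35e3* did not pass the test (adjusted p = 0.053 and 0.054 from edgeR). The P9 controls enter the age change and the P9 effect with opposite sign, and the genes were chosen by their calls. Opposite signs are thus favoured in advance, and no relation between the values was computed.

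Genes that work with the carriers were read from 3 lists. Of the partners of carriers and the sodium pump that builds the sodium gradient, 1 of 15 tested rose at E14.5 and 3 of 14 at P9, against 0.602% and 2.66% of all genes, with median log2 fold changes of 0.07 and 0.15, and 0 fell (0 at E14.5 and 1 at P9 had an unadjusted p under 0.05 and a lower level by edgeR). *Fxyd6*, a regulator of the sodium pump, rose by 0.68 at E14.5 and by 1.26 at P9 (adjusted p = 0.034 and 0.0014). At P9 *Bsg*, which brings monocarboxylate carriers to the surface, rose by 0.61 (adjusted p = 0.040) and the pump subunit *Atp1b1* by 0.48 (adjusted p = 0.048), both lost in most fits that leave out a library, with adjusted p of up to 0.097 and 0.12. The E14.5 call for *Fxyd6* was lost without control library 1 or 6 or *Isl1CKO* library 2, 3, 4 or 5, with adjusted p of up to 0.11. Without the 3 *Isl1CKO* libraries named above it was at 0.55 and did not pass (adjusted p = 0.54). With all 4 groups in 1 model it was at 0.68 and did not pass (adjusted p = 0.15). *Bsg* and *Atp1b1* were at 0.56 and 0.39 without the 2 P9 libraries (adjusted p = 0.10 and 0.13), and at 1.27 and 1.15 under total-count scaling, where both passed, as did *Fxyd6* at 1.93.

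Of the genes that ATF4 induces when amino acids run short, 2 of 18 tested rose at E14.5 (0.602% of all genes) and 1 of 17 fell at P9 (2.14% of all genes), with median log2 fold changes of 0.04 and -0.06. *Asns*, asparagine synthetase, went from 470 ± 49.4 scaled counts (SD, n = 6) to 842 ± 219 (SD, n = 5) at E14.5, and *Stc2* from 186 ± 21.1 to 392 ± 57.2, with adjusted p of 0.012 and 0.0011. Without the 3 *Isl1CKO* libraries high in macrophage markers *Asns* was at 0.60 and did not pass (adjusted p = 0.39), while *Stc2* was at 1.19 (adjusted p = 0.043). With all 4 groups in 1 model *Asns* at 0.84 and *Stc2* at 1.08 did not pass (adjusted p = 0.080 and 0.67). *Atf4* itself fell by 0.78 at P9 (adjusted p = 0.034), a call lost in 7 of 11 fits with 1 library left out, with adjusted p of up to 0.09. Under total-count scaling *Atf4* was at -0.13 (adjusted p = 0.64). In the zinc, iron and copper list, 16 genes were tested at E14.5 and none passed (2 had an unadjusted p under 0.05 by edgeR, both higher), and 15 at P9, where the metal reductase gene *Steap2* rose by 1.29 (adjusted p = 0.013) and the transferrin receptor gene *Tfrc* fell by 1.26 (adjusted p = 0.027). The *Tfrc* call was lost without control library 1, 2 or 3 or *Isl1CKO* library 2 or 4, with adjusted p of up to 0.081. Under total-count scaling *Tfrc* was at -0.59 (adjusted p = 0.21) and *Steap2* at 1.97, which passed. The shares of all genes at P9 were 2.66% higher and 2.14% lower.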

How the data were processed

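RNA-seq counts from 22 libraries of 100 sorted cells were analysed. The deposited tables hold raw counts per Ensembl gene, made by the authors: per the labels and the paper's methods, reads were trimmed with cutadapt 1.18, SortMeRNA and Bowtie 1.2.2 took out ribosomal sequence, and STAR 2.7.0c aligned what remained to GRCm38.p6, after which reads were assigned to genes with Rsubread, leaving out multi-mapping reads. Genes with fewer than 10 counts in all are absent from the tables. GENCODE M21 holds 27078 and 27456 of the gene IDs at the 2 ages.

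The main test was that of edgeR 4.0.16, run under R 4.3.3 (TMM, filterByExpr, quasi-likelihood test, Benjamini-Hochberg adjustment over all genes tested). Adjusted p without another name are from edgeR. SE is the size of the log2 fold change divided by the square root of F. Alternatives, given in the closing section, included DESeq2 1.42.0 and limma-voom (limma 3.58.1), other scalings and filters, a replicate block and each library left out. The steps were tested on simulated data. Genes named are *Slc7a2*, *Slc38a5*, members called in *Isl1CKO* or for the interaction, the leading member of each class by level per exon length, the 6 largest rises and falls with age in controls with separate ranges, the 2 genes on each side of the mean count, and up to 4 called genes of each list at each age. The members and lists were chosen with earlier results of these data known. The study calls each library a biological replicate, and how animals map to libraries is not given in the sources used here.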

Additional observations from a re-analysis of the deposited data

Results flagged for a closer look

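In 13 of 108 groups of libraries tested by Dixon's rule, 1 library lay far from the others, where chance flags about 1 in 20. *Slc38a5* was at 31508 scaled counts in P9 *Isl1CKO* library 1, with 9891 next. In the same library *Slc2a6* was at 27, with 7.01 next. Among P9 controls, *Slc12a1* was at 45.1 in library 5 (5.82 next), *Slc35e3* at 11.1 and *Slc7a14* at 3468 in library 2 (1.94 and 2445 next), *Slc35b1* at 2712 in library 3 (3375 next) and *Slc7a8* at 687 in library 4 (951.6 next). In P9 *Isl1CKO*, *Slc13a4* was at 41.2 and *Slc22a15* at 179 in library 6, and *Slc39a2* at 41.4 in library 2. At E14.5, *Slc2a6* was at 68.1 in control library 1, *Slc52a3* at 47.1 in control library 6 and *Slc5a9* at 513 in *Isl1CKO* library 3.

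The *Isl1CKO* effect differed between the ages, by the interaction term, for 9 members. The difference, P9 minus E14.5 on the log2 scale, was 2.57 for *Slc38a5*, 3.72 for *Slc12a1*, 2.96 for *Slc5a9* and 4.07 for *Slc35e3*. It was -5.07 for *Slc5a1*, -1.80 for *Slc37a3*, -0.97 for *Slc38a10*, -0.72 for *Slc3a2* and -0.62 for *Slc35b1*.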

How the results depend on the processing

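Over 46 called values of single genes and 1120 alternative fits, 926 kept the call, 192 lost it in the same direction and 2 reversed. At E14.5, where 4 members were called, DESeq2 called 8, leaving out 3 *Isl1CKO* libraries (chosen after seeing the data) left 2, and limits on size (fold above 1.5 or below 0.5, mean scaled count at least 50) left 1. At P9, against 12, there were 25 with all 4 groups in 1 model, 25 with DESeq2, 32 with total counts and 6 with the same limits on size. For the difference between the ages, against 9, there were 15 with DESeq2 and 23 with total counts. Leaving out 1 library gave 3 to 5 calls at E14.5, 8 to 15 at P9, 5 to 11 for the difference (5 without E14.5 *Isl1CKO* library 2, 3 or 4) and 62 to 77 with age. No control and *Isl1CKO* library, with or without the same number, had deviations from their group means correlated above 0.1. This does not settle whether libraries with the same number shared a litter or batch, since such a share need not show in these deviations. The replicate block left 3 calls at E14.5, 5 at P9 and 4 for the difference. Under the block *Slc12a1* and *Slc7a8* at E14.5 changed sign to 0.0034 and -0.021. Total counts reversed *Slc3a2* (0.13) and *Slc4a7* (0.055), which were called at P9, and *Slc16a12* (0.43), *Slc35b1* (0.22) and *Slc38a10* (0.020), which were not, and the differences of *Slc16a10* (0.17), *Slc4a7* (0.22) and *Slc7a14* (0.58). The cause was not tested. With 1 library left out, values near 0 crossed it: *Slc12a1* (-0.41 to 0.023), *Slc2a6* (-0.094 to 0.90), *Slc35e3* (-0.22 to 0.045, and 0.029 without 3 libraries) and *Slc7a8* (-0.074 to 0.24) at E14.5, and the difference of *Slc7a14* (-0.14 to 0.084). Depth limits *Slc5a1*, *Slc39a2*, *Slc52a3*, *Slc26a1* and *Slc35e3*, with 3 to 8 counts in all in the lower group.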
